A study of Mus musculus with 34 samples.

Results

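The 10 genes described here, Milr1, Cd200r1, Cd200r3, Cd300a, Cd300lf, Cd33, Cd84, Fcgr2b, Fcgr3 and Cd47, encode surface receptors by which mast cells (MCs) are restrained or engaged by their neighbours. They were picked as named genes, by no measured threshold, out of 25853 gene names in the tables, and all 10 were found. MCs are resident immune cells that release histamine and proteases when antigen crosslinks IgE on their surface. Inhibitory receptors oppose this signal: many carry an immunoreceptor tyrosine-based inhibitory motif (ITIM) in their tail, which is phosphorylated by Src family kinases such as Lyn and then recruits the phosphatases SHP-1 or SHIP-1. The group is mixed by role. Milr1 (Allergin-1), Cd300a, Cd300lf and Fcgr2b are ITIM receptors, and Cd200r1 inhibits through Dok adaptors without an ITIM. Cd33 is a sialic acid-binding Siglec and Cd84 a self-binding receptor of the SLAM family. Cd47 is the widely expressed ligand of SIRPα. Cd200r3 and Fcgr3 are activating receptors that signal through the adaptors DAP12 (Tyrobp) and the Fc receptor γ chain (Fcer1g), so the term inhibitory fits only some of the genes.

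MCs were sorted as CD45+Lin−YFP+ cells from ear skin of 7-week-old male mice, 3 WT littermate controls (Mcpt5-cre+/− Tln1+/+ R26LSL:YFP, titled wt) and 3 Tln1ΔMC mice (Mcpt5-Cre Tln1fl/fl R26LSLYFP, titled KO), in 12 and 18 libraries, none of them treated. All 6 carried the Cre driver and the YFP reporter, the Mcpt5 promoter drives Cre in connective tissue MCs, and Tln1 encodes the integrin activator talin-1. Another 4 libraries hold CD45−GFP+ cells of Myh11GFP/+ ear skin, from an unknown number of mice, and serve as comparison cells sorted outside the blood lineage. The methods give a C57BL/6J-Albino background for the Tln1 line with its reporter crosses, and C57BL/6J for the remaining strains. The MC mice and the Myh11-GFP mice thus also differ in strain, and the sex of the latter is not given. Single cells were sequenced by mCEL-Seq2, a 3′ method with 1 unique molecular identifier (UMI) for each captured RNA molecule, so that levels of different genes were compared as molecules, with no correction for length.

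The 2477 MCs with more than 1000 transcripts (904 WT, 1573 Tln1ΔMC) had a median of 3301 transcripts outside predicted genes named Gm plus a number, and the 330 Myh11-GFP cells 3915. The paper reports fewer MCs past its limits and left out a small cluster with macrophage features. Here all 2477 were kept and are called MCs by their sort, and the source of the gap is not known. Gm genes took 14.2% of transcripts in Tln1ΔMC mouse 3 and 36.7% to 58.0% in the other 5 mice. All levels below are therefore transcripts per 10000 outside Gm genes. The 10 MC markers, Kit, Cpa3, Mcpt4 and Fcer1a among them, summed to between 637 and 872 in the 6 mice and to 0.194 in Myh11-GFP cells. Of the MC barcodes, 5 held more than 30000 transcripts outside Gm genes, the deepest 399798, against 22453 for the next cell. MC markers made up 0.279% to 1.65% of their transcripts, against a median of 7.17% over all MCs. Those 2 that fell in library 8 of Tln1ΔMC mouse 3 made up 9.40% of the transcripts of that mouse, and WT mice 2 and 3 held 2 and 1. Macrophage and dendritic cell markers summed to 117 in library 3 of WT mouse 2, against a median of 3.01 over the 30 libraries. Tln1 stood at 4.51, 5.92 and 6.71 in the WT mice and at 5.57, 4.33 and 3.63 in the Tln1ΔMC mice, and the groups overlapped. Its tags come from the 3′ end, so that they do not check a deletion elsewhere in the gene.

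Of the 10 receptor genes, 7 stood above 1 transcript per 10000 and 2 below 0.1 in the mean of the 6 mice. Cd200r3 was the highest, at 4.56 ± 0.814 (SD, n = 6), followed by Cd47 at 3.89 ± 0.451, Fcgr3 at 3.08 ± 0.477 and Fcgr2b at 2.20 ± 0.507. Milr1 at 1.98 ± 0.347, Cd33 at 1.79 ± 0.128 and Cd84 at 1.73 ± 0.591 came next. Cd200r1 followed at 0.571 ± 0.0887, Cd300lf at 0.0865 ± 0.0416 and Cd300a at 0.0797 ± 0.0448. Neighbours in this order were compared within the mice by an exact two-sided sign-flip permutation test, with 9 pairs and a smallest p of 0.031. The order, and so the pairs and their direction, came from the same 6 mice. The p values do not account for this and serve as a description. Cd47 was above Fcgr3, Cd84 above Cd200r1 and Cd200r1 above Cd300lf in 6 of 6 mice (exact p = 0.031 each, 0.094 after Benjamini-Hochberg adjustment). The order of the other 6 pairs did not hold in every mouse, with exact p from 0.0625 to 0.844. Fcgr2b, Milr1, Cd33 and Cd84 could thus not be ranked among themselves beyond the spread between mice.

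**Figure D1:**
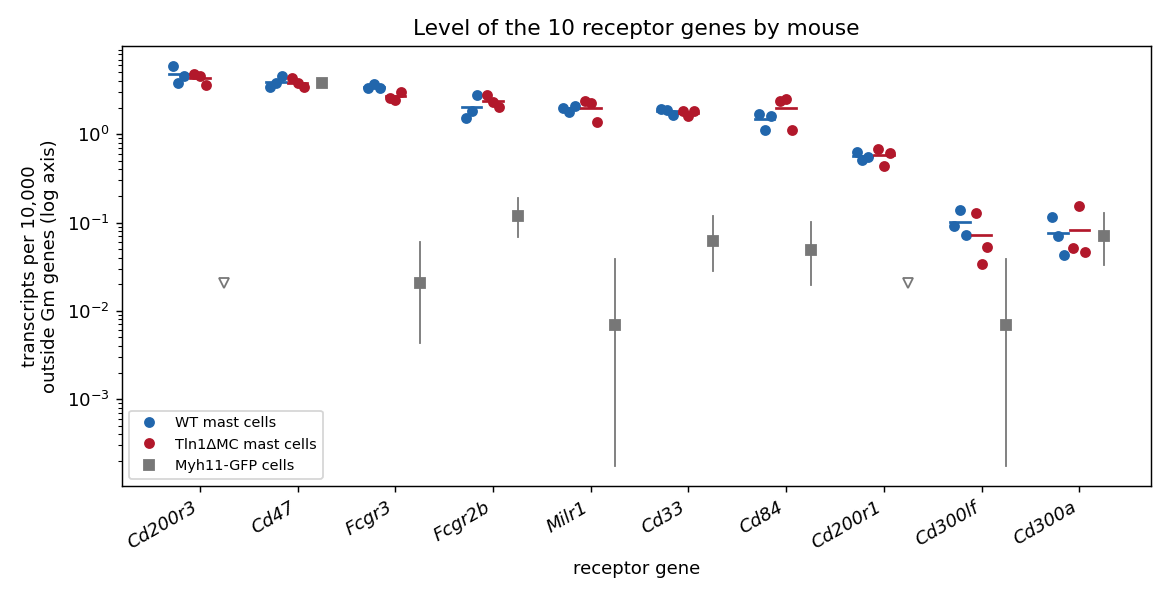
Level of each receptor gene in transcripts per 10000 outside Gm genes, on a log axis. Circles are mice (blue WT, red Tln1ΔMC, 3 each) with a line at their mean, grey squares the pooled Myh11-GFP cells with the 95% Poisson interval, and open triangles the level of 3 transcripts where none was found. Cd47 stands as high in Myh11-GFP cells as in MCs, Cd300a is low in both, and the other genes lie lower in Myh11-GFP cells.

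In 7 of 10 genes the level of all 6 mice lay above the upper counting bound of the Myh11-GFP cells, which held for 23.1% of the 8601 genes tested. The exceptions were Cd47, Cd300a and Cd300lf. No test was made since the mice behind the Myh11-GFP libraries are not given, and the intervals cover counting error only. Macrophage and dendritic cell markers summed to 5.53 in the Myh11-GFP cells, so these are not a baseline free of such transcripts. Cd200r3 and Cd200r1 had no transcript among the Myh11-GFP cells. Against the level of 3 transcripts over all these cells, MCs were at least 219-fold higher in Cd200r3 and at least 27.4-fold higher in Cd200r1. Milr1 had 1 transcript, a ratio of 285 with a counting interval of 51.2 to 11269, and Fcgr3 had 3, a ratio of 148 with an interval of 50.6 to 717. Fcgr2b was 18.6-fold higher in MCs (11.6 to 32.0), Cd33 28.7-fold (15.1 to 62.8) and Cd84 35.6-fold (17.3 to 88.7).

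The promoter windows of 4 genes are shown to set Cd200r3, Milr1 and Fcgr3, which had at most 3 transcripts in Myh11-GFP cells, beside Cd47, which was as high there as in MCs. For Fcgr3 and Cd47 the table holds 2 windows, of which the first is shown, and those starts lie inside the gene bounds given below. The windows run from 250 bases before to 50 after the gene start, are given 5′ to 3′ on the strand of the gene, and come from RefSeq on GRCm38.p6. Capitals mark matches on either strand to GATAA (a core bound by GATA factors), CACNTG (an E-box) and GAGGAA (a core bound by ETS factors such as PU.1), which do not overlap one another here. The Cd200r3 window is chr16:44943428-44943727, that of Milr1 chr11:106750976-106751275, that of Fcgr3 chr1:171059354-171059653 and that of Cd47 chr16:49855404-49855703.
Cd200r3: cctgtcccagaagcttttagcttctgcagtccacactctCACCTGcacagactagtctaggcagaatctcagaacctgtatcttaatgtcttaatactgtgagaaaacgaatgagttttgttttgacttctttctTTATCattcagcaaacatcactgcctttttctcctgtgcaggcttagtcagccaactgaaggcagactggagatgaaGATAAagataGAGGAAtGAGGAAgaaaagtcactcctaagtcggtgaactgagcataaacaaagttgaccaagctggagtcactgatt
Milr1: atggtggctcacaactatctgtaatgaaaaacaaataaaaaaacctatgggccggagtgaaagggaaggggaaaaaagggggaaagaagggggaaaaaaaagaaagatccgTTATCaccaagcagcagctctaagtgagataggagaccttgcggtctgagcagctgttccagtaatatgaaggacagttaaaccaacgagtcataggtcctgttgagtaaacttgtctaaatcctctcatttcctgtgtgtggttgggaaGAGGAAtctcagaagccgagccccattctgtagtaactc
Fcgr3: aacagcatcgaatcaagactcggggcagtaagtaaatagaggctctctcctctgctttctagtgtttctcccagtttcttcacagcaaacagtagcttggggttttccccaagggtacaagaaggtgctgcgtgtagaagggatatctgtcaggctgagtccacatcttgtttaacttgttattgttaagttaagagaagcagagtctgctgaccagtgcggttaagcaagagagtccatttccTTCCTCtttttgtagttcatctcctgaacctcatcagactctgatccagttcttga
Cd47: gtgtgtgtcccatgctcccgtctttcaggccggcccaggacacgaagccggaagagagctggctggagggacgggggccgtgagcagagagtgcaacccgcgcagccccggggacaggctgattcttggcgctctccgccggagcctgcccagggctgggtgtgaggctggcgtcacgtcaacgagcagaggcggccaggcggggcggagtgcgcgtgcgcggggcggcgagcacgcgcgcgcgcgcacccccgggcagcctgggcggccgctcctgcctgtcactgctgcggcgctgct
Among the 9 members with a window in this table, GATAA occurred in those of Cd200r3, with 2 matches starting 115 and 38 bases before the gene start, and of Milr1, with 1 match 139 bases before it. It was found in 25.4% of all 32851 windows. GAGGAA occurred in 7 of the 9 members, all but Fcgr2b and Cd47, and in 28.3% of all windows. CACNTG occurred in Cd200r3 and Cd33 and in 44.9% of all windows. The Cd47 window held no match to these motifs and had a GC content of 74.0%, against 42.3% to 54.7% in the other 8 members. These matches describe the letters and not binding, which was not measured here.

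Fcgr2b, on chromosome 1 of GRCm38 (170958617 to 170976547, minus strand), encodes the inhibitory low-affinity IgG receptor, which restrains IgE signals when it is crosslinked with them. Its level was 1.54, 1.81 and 2.76 in the WT mice and 2.78, 2.29 and 2.02 in the Tln1ΔMC mice, and the groups overlapped. Milr1 lies on chromosome 11 (106751226 to 106768794, plus strand) and encodes Allergin-1, an ITIM receptor of MCs; Polg2 overlaps it on the opposite strand, and reads were counted by strand. Its level was 1.99, 1.80 and 2.10 in the WT mice and 2.35, 2.26 and 1.39 in the Tln1ΔMC mice, so that Tln1ΔMC mouse 3 was the lowest of all 6 and the other 2 of its group the highest.

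The ITIM receptors Cd300a and Cd300lf, which bind phospholipids or other lipids, both lie on chromosome 11 (114890041 to 114904654, plus strand, and 115116214 to 115133992, minus strand). Only 67 transcripts of Cd300a and 71 of Cd300lf were found in all 2477 MCs, and 5 and 6 of the 30 libraries had none. The Cd300a level in the mice ran from 0.0429 to 0.153 and was 0.0694 in Myh11-GFP cells (95% Poisson interval 0.0333 to 0.128), a ratio of 1.15 with an interval of 0.624 to 2.39. Cd300a was thus not distinguishable at this depth from its level in Myh11-GFP cells, which also held macrophage and dendritic cell markers. Cd300lf stood at 0.0925, 0.139 and 0.0715 in the WT mice and at 0.128, 0.0340 and 0.0535 in the Tln1ΔMC mice, and 1 transcript was found in the Myh11-GFP cells.

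Cd200r1 and Cd200r3, receptors of one family on chromosome 16 (44765736 to 44794978 and 44943678 to 44981380, both plus strand), differed in level by close to an order of magnitude. Cd200r1, the inhibitory receptor for CD200, stood at 0.624, 0.514 and 0.558 in the WT mice and at 0.679, 0.433 and 0.619 in the Tln1ΔMC mice. The activating Cd200r3 stood at 5.93, 3.84 and 4.59 in the WT mice and at 4.83, 4.51 and 3.65 in the Tln1ΔMC mice. The ratio of Cd200r1 to Cd200r3 lay between 0.0960 and 0.169 in all 6 mice, so that the activating receptor was the more abundant in each. Cd200r4, another member of this family, stood at 1.65 ± 0.384 (SD, n = 6), and Cd200r2 had 29 transcripts in all MCs. The genes of this family are similar in sequence, and multi-mapping reads had been dropped before counting, so that the split among Cd200r1, Cd200r3 and Cd200r4 is uncertain.

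Fcgr3, on chromosome 1 (171051174 to 171064935, minus strand), encodes the activating low-affinity IgG receptor. It resembles Fcgr2b in sequence, so that the split between them carries the same uncertainty as in the CD200R family. Its level was 3.35, 3.69 and 3.36 in the WT mice and 2.59, 2.47 and 3.02 in the Tln1ΔMC mice, and all 3 Tln1ΔMC mice lay below all 3 WT mice. The ratio of Fcgr2b to Fcgr3, of the inhibitory to the activating IgG receptor, was 0.458, 0.492 and 0.821 in the WT mice and 1.07, 0.928 and 0.669 in the Tln1ΔMC mice. These ratios overlapped between groups (exact two-sided permutation p = 0.2 on the log2 scale, smallest possible p 0.1).

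Cd33, on chromosome 7 (43524216 to 43544428, minus strand), varied least between mice among the 7 genes above 1 transcript per 10000, from 1.62 to 1.94. It stood at 1.94, 1.89 and 1.66 in the WT mice and at 1.82, 1.62 and 1.83 in the Tln1ΔMC mice, and the groups overlapped. Cd84, on chromosome 1 (171839697 to 171890718, plus strand), stood at 1.70, 1.12 and 1.62 in the WT mice and at 2.37, 2.48 and 1.11 in the Tln1ΔMC mice. Tln1ΔMC mice 1 and 2 were the highest of the 6 and mouse 3 of the same genotype the lowest. Over the libraries of Tln1ΔMC mouse 2 Cd84 ran from 1.57 to 3.96, and over those of mouse 3 from 0.548 to 1.49. Cd47, on chromosome 16 (49800533 to 49915010, plus strand), marks cells as self to phagocytes through SIRPα. It stood at 3.47, 3.84 and 4.52 in the WT mice, at 4.32, 3.80 and 3.40 in the Tln1ΔMC mice and at 3.77 in Myh11-GFP cells (3.46 to 4.10), inside the range of the mice.

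To compare cells at equal depth, each cell was thinned to 1000 UMIs outside Gm genes, which left out 193 WT, 89 Tln1ΔMC and 23 Myh11-GFP cells that were shallower. At this depth a UMI of Cd200r3 was found in 32.8% to 47.4% of MCs by mouse, of Cd47 in 27.7% to 34.2% and of Fcgr3 in 17.8% to 28.2%. Fcgr2b was found in up to 23.0% of cells, Milr1 in 12.4% to 20.6%, Cd33 in 13.3% to 19.8% and Cd84 in 10.2% to 17.8%. Cd200r1 reached 4.35% to 6.67%, Cd300a at most 1.98% and Cd300lf at most 2.08%. In the 307 Myh11-GFP cells the share was 30.9% for Cd47 (exact binomial interval 25.8% to 36.4%) and at most 0.977% for each of the other 9 genes. Without thinning, the shares rose with depth: Cd200r3 to between 52.6% and 75.4% and Fcgr3 to between 38.6% and 71.1%, both highest in the deepest mouse, Tln1ΔMC mouse 3. A cell without a UMI at this depth may therefore still express the gene.

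**Figure D2:**
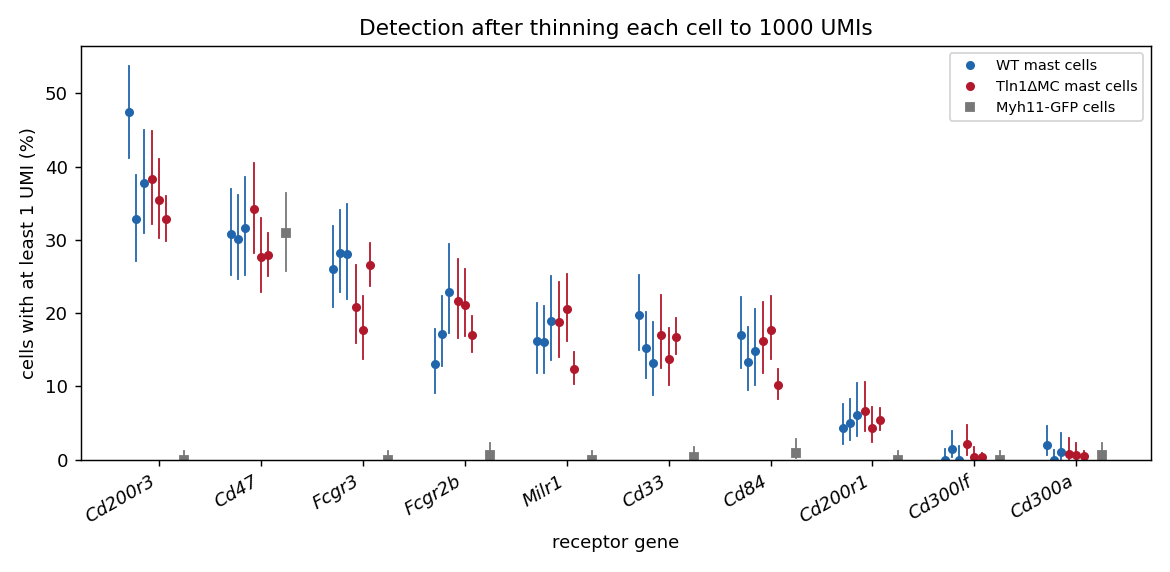
Percent of cells with at least 1 UMI of each receptor gene after thinning to 1000 UMIs outside Gm genes. Points are mice (blue WT, red Tln1ΔMC) and the pooled Myh11-GFP cells (grey squares), and bars are exact 95% binomial intervals, which cover counting error only. Cd200r3 is found in 32.8% to 47.4% of MCs by mouse, and Cd47 is the only gene found in Myh11-GFP cells above 0.977%.

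Of these thinned MCs, 11.9% to 19.8% by mouse held none of the 10 genes and 45.9% to 59.3% held 2 or more, at most 6. Of the Myh11-GFP cells, 67.1% held none and 0.651% held 2 or more. The share with none was 13.4% ± 1.98 (SD, n = 3) in WT and 16.6% ± 4.01 (SD, n = 3) in Tln1ΔMC mice (exact two-sided permutation p = 0.3). The inhibitory Fcgr2b and the activating Fcgr3 were found together in 3.95% to 6.12% of MCs by mouse. Their separate shares multiplied give 3.40% to 6.44%, and the joint share was above this product in 5 of 6 mice, by less than 1 percentage point. For Cd84 the variance of thinned UMIs over cells was 1.12 to 1.65 times the mean in the 6 mice, where equal cells would give about 1. It remained above 1 in 6 of 6 mice, at 1.10 to 1.36, when the cell with the most UMIs was left out of each, and so did Cd200r3, at 1.02 to 1.17, and Fcgr3, at 1.00 to 1.29. The lowest of these values, 1.00 for Fcgr3 and 1.02 for Cd200r3, lay close to 1. Counting error of the ratios was not computed. Whether they exceed 1, or differ between the genes, was not tested. For Fcgr2b the ratio reached 1.92 in WT mouse 2 and 1.99 in WT mouse 3, and without the top cell, which held 8 thinned UMIs in each, no mouse was above 1.24. For Cd33 it was 0.984 to 1.13.

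**Figure D3:**
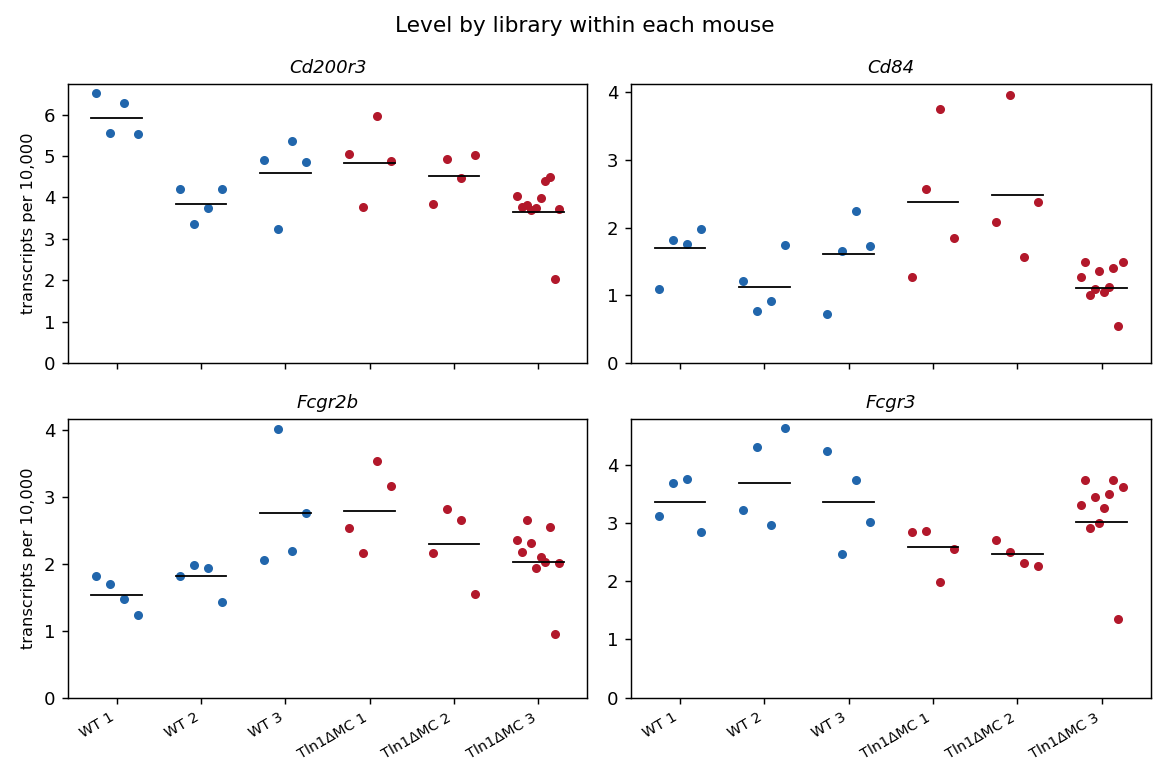
Level of Cd200r3, Cd84, Fcgr2b and Fcgr3 in each of the 30 MC libraries (points, blue WT, red Tln1ΔMC) in transcripts per 10000 outside Gm genes, with a line at the level of the mouse. The lowest point of Tln1ΔMC mouse 3 in each panel is library 8, which held 2 of the 5 deepest barcodes, and Cd84 reaches 3.75 and 3.96 in 1 library each of Tln1ΔMC mice 1 and 2.

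Whether loss of talin-1 moved these genes was tested by limma on 8601 genes that reached 10 transcripts in 3 or more mice, and all 10 receptors were among them. None of the 10 was called at an adjusted p of 0.05, where 0% of all genes tested was called. At an unadjusted p under 0.05 it was 0 of 10, against 527 genes or 6.13% of all. It became 1 of 10 without WT mouse 3 (Fcgr2b, where 3.86% of all genes passed) and 1 of 8 tested without Tln1ΔMC mouse 3 (Cd84, where 8.24% passed), both with an adjusted p of 0.446 or more. It stayed 0 without each of the other mice, where the share of all genes was 11.8% without WT mouse 1, 4.44% without WT mouse 2, 4.66% without Tln1ΔMC mouse 1 and 3.82% without Tln1ΔMC mouse 2. The largest differences were a log2 fold change of -0.52 ± 0.57 (SE) for Cd300lf, 0.41 ± 0.31 for Cd84, -0.32 ± 0.18 for Fcgr3 and 0.30 ± 0.25 for Fcgr2b, all with an adjusted p of 0.855 or more from limma. With each mouse left out in turn, the log2 fold change ran from -0.71 without WT mouse 3 to -0.19 without Tln1ΔMC mouse 2 for Cd300lf, which passed the filter in 3 of the 6 fits. For Fcgr2b it ran from 0.07 without WT mouse 1 to 0.55 without WT mouse 3, and for Fcgr3 from -0.39 without Tln1ΔMC mouse 3 to -0.20 without WT mouse 2. The median over the 10 was 0.03, against 0.02 over all genes tested. The intervals limit what could be missed: the 95% interval of the fold ran from 0.762 to 1.30 for Cd33, from 0.747 to 1.37 for Cd47, from 0.700 to 1.28 for Cd200r3 and from 0.724 to 1.46 for Milr1. Those of Cd84 (0.831 to 2.14), Cd300a (0.399 to 2.77) and Cd300lf (0.288 to 1.68) were wider, and that of Fcgr2b reached 1.82. Without Tln1ΔMC mouse 1 limma called 10 genes and without WT mouse 1 it called 1, all lower in Tln1ΔMC mice and none of them a receptor.

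**Figure D4:**
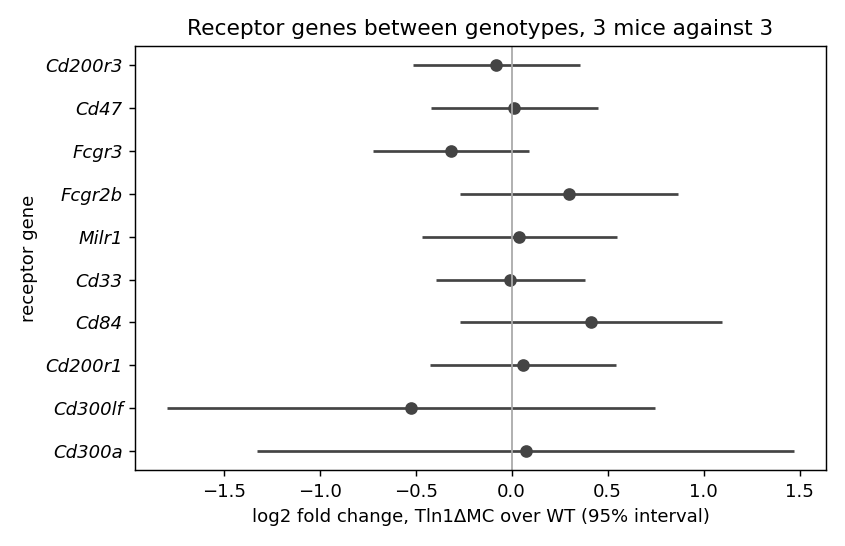
Log2 fold change of each receptor gene, Tln1ΔMC over WT, with its 95% interval from limma, for 3 mice against 3. All 10 intervals include 0; that of Fcgr3 runs from -0.72 to 0.09 and those of Cd300a and Cd300lf are the widest.

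By levels alone, the mice of the groups did not overlap in 1 of the 10 genes, Fcgr3, and this happened in 11.6% of all genes tested, and with the Tln1ΔMC mice on the lower side in 6.31%. Fcgr3 was 3.47 ± 0.191 in WT and 2.69 ± 0.290 in Tln1ΔMC mice (SD, n = 3 each), with an exact two-sided permutation p of 0.1, the smallest that 3 mice against 3 allow. Without the 5 deepest barcodes the WT mice ran from 3.35 to 4.11 and the Tln1ΔMC mice from 2.47 to 3.31, still apart. In that setting 11.4% of all genes stood apart. As a mean over cells, the groups overlapped for all 10 receptors, where 9.6% of all genes stood apart. With all transcripts as the total, Gm genes included, the groups of Fcgr3 overlapped too and those of Cd84 stood apart, as did 5.86% of all genes. Thinned detection of Fcgr3 was 26.1%, 28.2% and 28.1% in WT and 20.8%, 17.8% and 26.5% in Tln1ΔMC mice, and overlapped (exact permutation p = 0.2). Thinned detection stood apart in 0 of 10 genes, against 10.4% of all genes tested, and detection without thinning in 2, Cd84 and Fcgr2b, against 9.78%. Fibroblast markers, all 6 of the list in the tables, summed to between 20.1 and 82.7 in the WT mice and between 0.976 and 10.5 in the Tln1ΔMC mice. Of these, 5 of 5 tested had an unadjusted limma p under 0.05 and none an adjusted one. Among the 5 deepest barcodes, a barcode of WT mouse 2 held 22.9% of its transcripts on fibroblast markers and that of WT mouse 3 held 6.20%. These barcodes held 38293 and 54604 transcripts outside Gm genes, and most fibroblast marker transcripts of WT mice 2 and 3 came from them. The sum of 20.1 belonged to WT mouse 1, which held none of the 5 deepest barcodes. Marker sums without these barcodes were not computed, and a shift with genotype beyond them was not tested. Macrophage and dendritic cell markers, with 13 of 14 in the tables and none at 0, summed to between 3.05 and 52.5 in WT and between 1.59 and 9.92 in Tln1ΔMC mice, and 4 of 11 tested had an unadjusted limma p under 0.05 and none an adjusted one (median log2 fold change -2.11). Without the 44 cells richest in macrophage markers the Fcgr3 groups stood apart, at 3.36 to 3.58 in WT and 2.48 to 2.99 in Tln1ΔMC mice. Of all genes, 10.6% then stood apart. The part of the fibroblast markers in the Fcgr3 difference was not tested. Fcgr3 stood apart in level with each mouse left out, which adds no support, since groups already apart with all mice cannot come to overlap. The number of receptors apart was 3 without WT mouse 3, 2 without Tln1ΔMC mouse 1 and 3 without Tln1ΔMC mouse 3, where 19.3%, 18.4% and 26.4% of all genes did. It was 1 without WT mice 1 or 2 or Tln1ΔMC mouse 2, where 29.8%, 18.4% and 19.4% did.

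The log2 fold change of Cd84, 0.41 with all mice, moved with most of them. It was 0.79 without Tln1ΔMC mouse 3, and fell to 0.18 without Tln1ΔMC mouse 2 and to 0.28 and 0.29 without Tln1ΔMC mouse 1 and WT mouse 2. Without WT mice 1 and 3 it was 0.48 and 0.51, and in no fit did it pass the adjusted threshold of limma.

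Several of these receptors are also known from macrophages, and 44 of the 2477 cells had at least 1% of their transcripts on macrophage and dendritic cell markers. In these cells Fcgr2b stood at 4.32 (95% Poisson interval 3.49 to 5.28), against 2.13 (2.01 to 2.26) in the 1547 cells with no transcript of these markers. Cd47 was higher too, at 6.30 (5.29 to 7.44) against 3.68 (3.53 to 3.84). Cd300a had 8 transcripts there and a level of 0.367 (0.158 to 0.723) against 0.0606 (0.0420 to 0.0847). Fcgr3 stood at 4.22 (3.41 to 5.18) against 3.06 (2.92 to 3.21). In the other direction, Cd200r3 was at 1.29 (0.854 to 1.86) against 4.46 (4.29 to 4.64), Milr1 at 0.826 against 1.79 and Cd200r1 at 0.184 against 0.597. The intervals of Cd33, Cd84 and Cd300lf overlapped. Cells are not replicates, so these intervals describe these cells only. The 44 cells still held Mcpt4, a granule protease of MCs, at 140.05, against 290.7 in cells without the markers. Without the 44 cells the levels of Fcgr2b ran from 1.54 to 2.77 by mouse, against 1.54 to 2.78 with them.

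**Figure D5:**
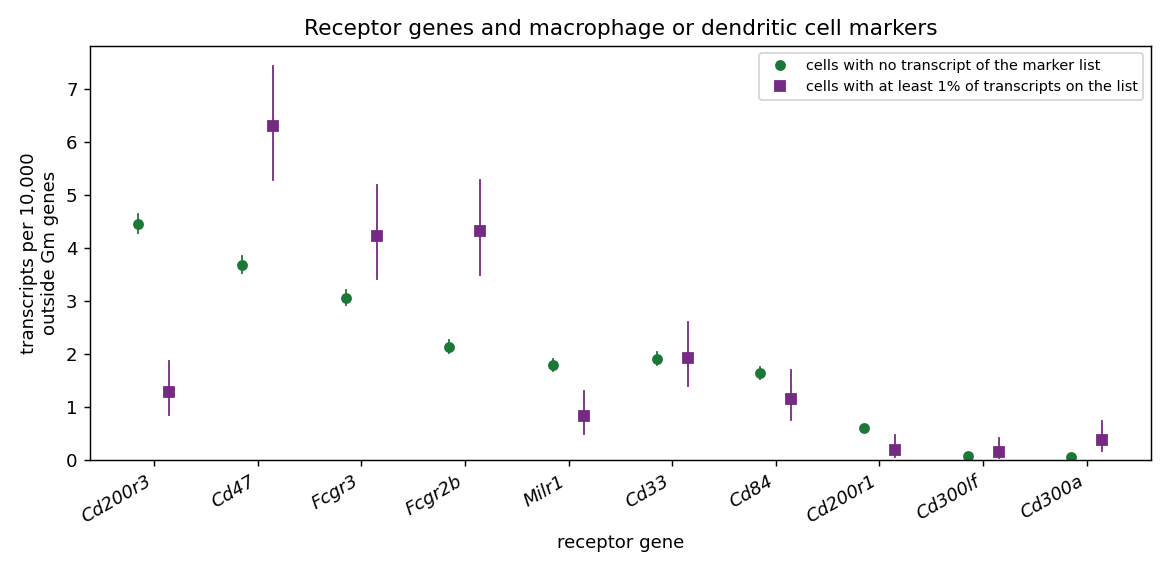
Level of each receptor gene, in transcripts per 10000 outside Gm genes, in the 1547 MC-sorted cells with no transcript of the macrophage and dendritic cell marker list (green circles) and in the 44 cells with at least 1% of transcripts on it (purple squares). Bars are exact 95% Poisson intervals. Fcgr2b, Fcgr3, Cd47 and Cd300a lie higher and Cd200r3, Milr1 and Cd200r1 lower in the 44 cells.

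The kinases, phosphatases and adaptors through which ITIM receptors and Cd200r1 act were found at unequal levels. Of 14 listed genes 13 were in the tables, 3 of these had a mean level below 0.1, 10 passed the filter, and 0 rose and 0 fell between genotypes in limma (median log2 fold change 0.15). Inpp5d, the gene of SHIP-1, stood at 3.17 ± 0.385 (SD, n = 6) and Ptpn6, the gene of SHP-1, at 2.43 ± 0.381, next to 0.00694 and 0.0208 in Myh11-GFP cells. Fyn was at 2.14 ± 0.215 and Lyn, which phosphorylates ITIMs, at 1.56 ± 0.210. Of the Dok adaptors, chosen after their values were seen, Dok3 stood at 0.873 ± 0.193, Dok1 at 0.0362 ± 0.0270 and Dok2 at 0.0604 ± 0.0153. The SLAM adaptors Sh2d1a and Sh2d1b1, which are not among the 4 highest genes of the list, had 1 and 158 transcripts in all MCs. Sh2d1b1 stood at 0.165 ± 0.0426. All 3 transmembrane adaptors were tested and 0 were called (median -0.04). Fcer1g, the partner of Fcgr3 and of the IgE receptor, stood at 15.8 ± 3.51, Tyrobp, the partner of Cd200r3, at 4.30 ± 0.704 and Hcst at 0.655 ± 0.0885. Cd200r3 and its adaptor were thus of like level, with a ratio of 0.718 to 1.66 by mouse, whereas Fcgr3 had 0.167 to 0.285 of the level of Fcer1g.

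Of 4 listed ligands 3 were in the tables, 2 were tested and 0 were called (median -1.16). Thbs1, a ligand of CD47, stood at 6.99 in Myh11-GFP cells, and in MCs from 0.0170 to 1.19 by mouse. Cd200, the ligand of CD200R1, had 56 transcripts in Myh11-GFP cells, a level of 0.389, and 12 in all MCs. Sirpa, the partner of CD47, stood at 0.856 ± 0.158 (SD, n = 6) in MCs and at 0.118 in Myh11-GFP cells.

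Among the other members of the receptor families, 23 of 25 were in the tables, 7 were tested and 0 called (median 0.0062), and 18 had a mean level below 0.1 in MCs, 1 of them with no transcript. The highest were Fcer1a at 2.58 ± 0.583, Cd200r4, Cd48 at 0.802 ± 0.200 and Siglec1 at 0.453 ± 0.252 (SD, n = 6), the last at 0.555 in Myh11-GFP cells. Of 22 other inhibitory receptors 19 were in the tables, 8 were tested and 0 called (median 0.24). Lilr4b, of the leukocyte immunoglobulin-like receptor family, stood at 20.3 ± 5.97, above all 10 receptors described here. Pilra followed at 4.39 ± 0.869, Pirb at 1.34 ± 0.121 and Ceacam1 at 0.389 ± 0.144, each an inhibitory receptor with ITIMs. Of the remaining marker lists, keratinocyte markers summed to between 0.0641 and 28.7 by mouse, and lymphocyte, endothelial, smooth muscle, pericyte and melanocyte or Schwann cell markers to at most 1.11 each, with 0 called. Lilr4b has near-identical relatives, so that its counts may be shared with them.

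Over the 30 MC libraries, after the mean of each mouse was taken off, the 3 genes most like Cd200r3 among 1624 with a mean level of at least 1 were Msn (Pearson r = 0.82), Fes (0.76) and Cd274 (0.75). For Cd47 they were Dtnbp1 (0.67), Tram1 (0.66) and Lasp1 (0.66), and for Fcgr3 Fxyd5 (0.92), Tpsg1 (0.86) and Capg (0.85). These correlations are a description: the libraries of a mouse share its cells and differ in depth, and the correlation of Cd200r3, Cd47 and Fcgr3 with log depth was -0.53, -0.23 and -0.49. Library 8 of Tln1ΔMC mouse 3, with its 2 deepest barcodes, enters all of them.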

How the data were processed

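Ear skin MCs of 3 WT and 3 Tln1ΔMC mice and Myh11-GFP cells were measured by mCEL-Seq2. Per the labels and the methods, the authors excluded dead cells and doublets in the sort, aligned reads with BWA 0.6.2-r126 to mm10 with ENCODE VM9 gene models in sense direction, dropped multi-mapping reads and turned UMIs into transcripts by binomial correction. The deposited values are estimated transcripts, neither scaled nor logged, and correspond to whole UMIs in all 34 tables. The same 192 cell barcodes serve every table by design, no cell had an identical twin, and no doublet caller was run. Per the methods, MCs came from 3 mice of each genotype, and the digit in the titles was taken as the mouse.

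Cells over 1000 transcripts and at most 2% Kcnq1ot1 were kept. Library totals of MCs ran from 309012 to 964834 transcripts, which limits low genes. Sums by mouse outside Gm genes, TMM-scaled by own code, were tested by limma 3.58.1 (R 4.3.3, trend) as log2 of transcripts per 1000000 with 1 added, at a Benjamini-Hochberg threshold of 0.05. A quasi-likelihood count test had been planned and was replaced because the deposited values, which are corrected transcripts, were not taken as counts. Single values were compared by exact two-sided permutation of mice. The fit was tested on simulated data. Intervals are exact Poisson or Clopper-Pearson ones at 95%, the floor is 3 counts, and both cover counting error only.

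Named were all members, of each list of partners the 4 highest genes, and for the 3 highest members the 3 genes most alike. The members and lists were chosen with earlier results of these data known. Gene positions are from GENCODE M21 (GRCm38). Alternatives covered scaling, filters, cells, libraries, thinning and each mouse left out.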

Additional observations from a re-analysis of the deposited data

Results flagged for a closer look

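Sets of 4 or 10 libraries of one mouse, or of the Myh11-GFP cells, were checked gene by gene. Of 68 sets, 9 held a library that stood farther from its neighbour than Dixon's 95% limit allows. About 1 in 20 would by chance if values were normal and sets independent. Libraries with 0 or 1 transcript do not meet this, and several of the 9 share library 8 of Tln1ΔMC mouse 3. The 9 are therefore not set against that rate. In library 8 of Tln1ΔMC mouse 3, the lowest of 10, Cd200r3 stood at 2.04 (next library 3.69), Cd84 at 0.548 (next 1.00), Fcgr2b at 0.954 (next 1.93) and Fcgr3 at 1.35 (next 2.91), all in transcripts per 10000 outside Gm genes. This library holds the barcode with 399798 transcripts outside Gm genes and another with 92786, and without both its levels were 4.17 for Cd200r3, 1.05 for Cd84, 1.57 for Fcgr2b and 2.67 for Fcgr3. Cd200r3 and Cd84 then lay among the other libraries of the mouse, and Fcgr2b and Fcgr3 stayed below them.

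In library 10 of the same mouse Cd300a stood at 0.133 (next 0.0597), from 5 transcripts. In library 14 of WT mouse 1 Milr1 stood at 1.78, below 2.05 in the next library. In library 14 of the Myh11-GFP cells Milr1, Cd300a and Cd300lf each stood at 0.0275, which is 1 transcript.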

How the results depend on the processing

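Under every alternative for scaling, filters and cells, limma called 0 receptors and 0 genes in all (9 receptors passed the filter for cells over 1000 transcripts outside Gm genes and without the library rich in macrophage markers, 10 otherwise). Leaving out each mouse gave 0 to 10 called genes, all lower in Tln1ΔMC (10 without Tln1ΔMC mouse 1, Col1a2 and Dcn among them, and C1qb without WT mouse 1, named after their values were seen), and 0 of 8 to 10 receptors tested. With the mouse number as a replicate block 0 genes were called and 427 had an unadjusted p under 0.05. The deviations of same-numbered mice correlated at 0.16, -0.21 and -0.26 over genes, and those of differently numbered mice at -0.29 to 0.42. With 3 mice in each group these values cannot show whether same-numbered mice share more than a number. DESeq2 was not run, since the deposited values were not taken as counts, although they correspond to whole UMIs. Leaving out barcodes not in use or the 5 deepest barcodes was chosen after seeing the data.

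Signs of small log2 fold changes turned. Without TMM that of Milr1 was -0.0103 and that of Cd47 -0.0368. That of Cd33 was 0.0331 with Gm genes kept, 0.00839 for cells over 1000 transcripts outside Gm genes, 0.00443 without the cells rich in macrophage markers, 0.0183 without the library rich in them and 0.0159 without the 5 deepest barcodes. Over the mice left out it ran from -0.0964 to 0.288 for Milr1, from -0.0314 to 0.219 for Cd200r1, from -0.159 to 0.0453 for Cd200r3, from -0.218 to 0.320 for Cd300a, from -0.0584 to 0.0869 for Cd33, from -0.123 to 0.133 for Cd47. Cd300a and Cd300lf each passed the filter in 3 of the 6 fits. The sign held for Cd300lf (-0.711 to -0.185), Cd84 (0.182 to 0.793), Fcgr2b (0.0691 to 0.555) and Fcgr3 (-0.394 to -0.203). The cause was not tested.

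The number of receptors whose groups stood apart in level was 1, but 0 as a mean over cells and 1 to 3 over the mice left out, and with all transcripts as the total the 1 gene was Cd84 in place of Fcgr3. In detection it was 0, but 2 without thinning (Cd84 and Fcgr2b, with 9.78% of all genes apart) and 0 to 2 over the mice left out, 2 without WT mouse 2 (Cd300a and Cd300lf, with 19.1% of all genes apart). Over the mice left out, 18.4% to 29.8% of all genes stood apart in level and 17.7% to 26.1% in detection. The number above Myh11-GFP cells was 7 with each Myh11-GFP library left out. Depth limits Cd300a and Cd300lf most.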
